A study of Mus musculus with 14 samples.

Results

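The genes of cholesterol synthesis, uptake and efflux were followed across 14 RNA sequencing libraries of MC-38 cells, a mouse colon adenocarcinoma line. The 35 genes were taken by symbol from the 24411 genes of the deposited count tables. They comprised 8 enzymes of the mevalonate steps, 11 enzymes from squalene to cholesterol, 4 regulators, 5 genes of uptake and lysosomal release, 2 of transport and storage, and 5 of efflux.

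Cells make cholesterol from acetyl-CoA through mevalonate, farnesyl diphosphate, squalene and lanosterol. When membrane cholesterol falls, the escort protein Scap carries the transcription factor encoded by Srebf2 out of the endoplasmic reticulum, and its processed form turns on the synthesis and uptake genes. When sterols are plentiful, the Insig proteins hold Scap back, and oxysterols activate the liver X receptors (Nr1h2 and Nr1h3), which raise the exporters Abca1 and Abcg1 and the apolipoprotein gene Apoe.

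The study asked how neutrophil extracellular traps (NETs), webs of chromatin released by neutrophils, and surgery alter the transcriptome of cancer cells. In culture, 3 libraries came from MC-38 cells grown alone and 3 from cells grown with NET chromatin collected from neutrophils. From lung tumours, GFP-expressing MC-38 cells were flow sorted on day 30 from 4 host groups with 2 libraries each: wild-type (WT) mice without surgery, WT mice with laparotomy on days 0 and 10, PAD4 knockout (KO) mice without surgery, and PAD4 KO mice with the same laparotomies. PAD4 is an enzyme that neutrophils use to form NETs; the deletion was in the host, and the MC-38 cells themselves were labelled WT in all 6 groups, so the Padi4 count of a library does not check its host label. Padi4 was nevertheless uneven: it took 59.8 to 75.0 of each 1000000 gene counts in the 6 cultures, 30.8 and 30.7 in the 2 WT laparotomy libraries and 2.1 to 7.69 in the other 6 tumour libraries. The WT laparotomy libraries thus stood apart from every other tumour library on a gene that the cultured line expresses, and whether this bears on the comparisons that use them was not tested. Strain, sex and age of the mice, the NET dose and the time of exposure were not given in the sources used here.

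Gene counts summed to 6389217 to 20607281 per culture library and 10844282 to 31255721 per tumour library, and the 35 genes took between 0.235% and 0.327% of them. Markers of other cells differed between libraries. The second WT library without surgery stood apart, with 918 CPM (counts per 1000000 counts in genes, after scaling) over 10 pan-leukocyte markers, 599 over 11 neutrophil markers, 1735 over 15 monocyte and macrophage markers and 880 over 12 lung epithelial markers; the other 7 tumour libraries held 71.5 to 163, 5.26 to 93.3, 113 to 521 and 12.2 to 445. The NET cultures held more neutrophil marker RNA (8.57 to 11.3 CPM) than the control cultures (0.381 to 1.02 CPM), and more over the macrophage list (149 to 172 against 84.6 to 103 CPM). Over 10 epithelial and colon markers the cultures summed to 0.979 to 1.93 CPM, with Cdh1 and Cdx2 at 0 in all control cultures, so the labelled colon line lacked those defining markers. In bulk RNA, fewer cells of a type and less RNA per cell cannot be told apart.

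The bases just before the start of a gene are where the factors that drive these genes are known to bind, so promoter stretches of 6 members are shown. They are from 5 enzymes whose levels are described across the tumour groups and from Insig1, which was lower in the NET cultures; the choice was made after the values were seen. Stretches are from RefSeq on GRCm38.p6, 5′ to 3′ on the strand of the gene, ending before the first annotated exon: Mvd at chr8:122443423-122443622 on the minus strand, Nsdhl at chrX:72918321-72918520 on the plus strand, Hsd17b7 at chr1:169969242-169969405 on the minus strand, Hmgcs1 at chr13:119690151-119690350 on the plus strand, Insig1 at chr5:28071212-28071362 on the plus strand, and Cyp51 at chr5:4104747-4104897 on the minus strand. Capitals mark CCAAT boxes (CCAAT, or ATTGG when on the other strand), the sterol regulatory element TCACNCCAC and the E-box CACGTG.
Mvd: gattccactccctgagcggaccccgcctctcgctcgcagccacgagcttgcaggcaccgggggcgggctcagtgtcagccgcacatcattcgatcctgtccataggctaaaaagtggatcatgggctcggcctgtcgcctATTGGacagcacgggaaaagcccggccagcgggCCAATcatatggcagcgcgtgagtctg
Nsdhl: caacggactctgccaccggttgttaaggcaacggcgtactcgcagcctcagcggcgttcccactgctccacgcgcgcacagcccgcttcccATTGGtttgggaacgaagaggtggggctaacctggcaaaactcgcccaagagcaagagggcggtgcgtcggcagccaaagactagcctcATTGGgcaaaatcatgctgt
Hsd17b7: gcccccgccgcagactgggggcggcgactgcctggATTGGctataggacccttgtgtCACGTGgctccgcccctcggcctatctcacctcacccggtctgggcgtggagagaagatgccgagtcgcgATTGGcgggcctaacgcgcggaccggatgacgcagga
Hmgcs1: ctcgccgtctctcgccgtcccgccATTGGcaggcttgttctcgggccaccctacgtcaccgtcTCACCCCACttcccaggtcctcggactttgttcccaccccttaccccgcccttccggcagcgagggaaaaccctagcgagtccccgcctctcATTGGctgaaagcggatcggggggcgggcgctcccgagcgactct
Insig1: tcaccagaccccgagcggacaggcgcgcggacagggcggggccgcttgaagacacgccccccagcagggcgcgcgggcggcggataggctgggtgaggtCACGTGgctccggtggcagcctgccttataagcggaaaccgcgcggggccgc
Cyp51: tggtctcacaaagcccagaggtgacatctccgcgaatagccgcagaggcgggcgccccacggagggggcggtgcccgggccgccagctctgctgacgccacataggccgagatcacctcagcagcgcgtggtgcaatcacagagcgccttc

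Mvd, Nsdhl, Hsd17b7 and Hmgcs1 each held 2 CCAAT boxes within these stretches, and Hmgcs1 also held the sterol element. Hsd17b7 and Insig1 held an E-box, and the Cyp51 stretch held no exact match of the 3 motifs. The stretches of Insig1 and Cyp51 run from 200 to 50 bases before the start; each gene had 1 CCAAT box outside its stretch, at 216 to 212 bases before the start of Insig1 and 29 to 25 before that of Cyp51. Over the 250 bases before every start, searched on both strands, 29 of the 35 members had a RefSeq entry. A CCAAT box was found in 23 of the 29 members (79.3%), against 39% of 17224 genes. The GC box GGGCGG was found in 22 members (75.9%, against 46.2% of genes) and the E-box in 6 (20.7% against 7.8%). A gene with several starts counted if any of them matched. Counted by start, the CCAAT box, GC box and E-box lay before 23, 24 and 6 of 39 member starts. Over 20788 starts of all genes the shares were 35%, 43.1% and 6.81%. The sterol element was found only in Hmgcs1 among these members (3.45% against 1.26%), and the liver X receptor direct repeat (GGTCA, 5 bases of any kind, GGTCA) in 0 members (0.0581% of genes). No 2 matches of different motifs overlapped. Only exact matches of each pattern were sought, so sites with other letters were not counted, and a member without a match is not shown to lack a site. These are matches of letters, not measured binding.

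In untreated culture, levels per kilobase of merged exons put the lysosomal cholesterol carrier Npc2 highest, at 73.9 ± 5.66 CPM per kb (SD, n = 3). Srebf2 (38.0 ± 5.43), Fdps (36.0 ± 4.83), Insig1 (34.1 ± 3.82) and Cyp51 (32.0 ± 2.0) followed, and each of these 4 differed from the next by less than the larger of their SDs. Of the 5 lowest members 4 were efflux genes, with Abcg1 at 0.023 ± 0.0085, Nr1h3 at 0.0687 ± 0.0926, Abca1 at 0.437 ± 0.0429 and Apoe at 0.71 ± 0.139 CPM per kb; the other was Tm7sf2, at 0.485 ± 0.144. Nr1h2, the other liver X receptor, was at 26.7 ± 3.93 CPM per kb.

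**Figure D1:**
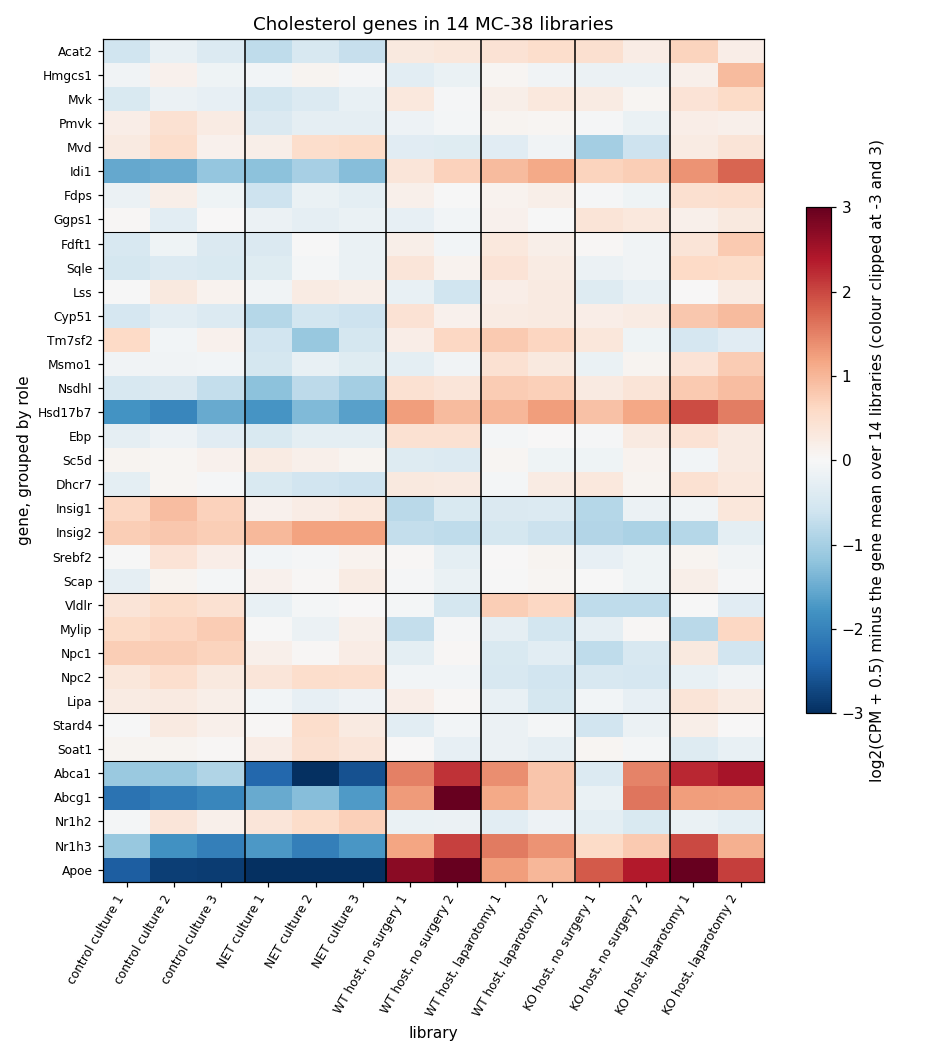
Each row is 1 of the 35 genes, grouped by role, and each column 1 of the 14 libraries; colour gives log2(CPM + 0.5) minus the gene's mean over the libraries, clipped at -3 and 3. Idi1, Hsd17b7, Abca1, Abcg1, Nr1h3 and Apoe were lower in all 6 cultures than in all 8 tumour libraries, and Insig2 was higher.

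Cultures with NET chromatin had lower RNA of 4 of the 5 genes of uptake and lysosomal release, Vldlr, Mylip, Npc1 and Lipa. Of 33 members that passed the filter on low counts, 14 were lower with NET chromatin and 4 were higher at an adjusted p under 0.05 (edgeR's quasi-likelihood test with Benjamini-Hochberg adjustment over 11753 genes), and 15 did not pass. The lower members were 42.4% of those tested, against 27.8% of all genes, and the higher members 12.1%, against 26.3%. The median log2 fold change of the members was -0.15, while that of all genes was 0.00. In either direction 54.1% of all genes passed, so a call by itself does not set a member apart. Scaled by library totals, which moved the median of all genes to -0.16, the split was 1 higher and 18 lower. The neutrophil and macrophage marker sums given above were higher in the same cultures, and their part in these differences was not tested.

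**Figure D2:**
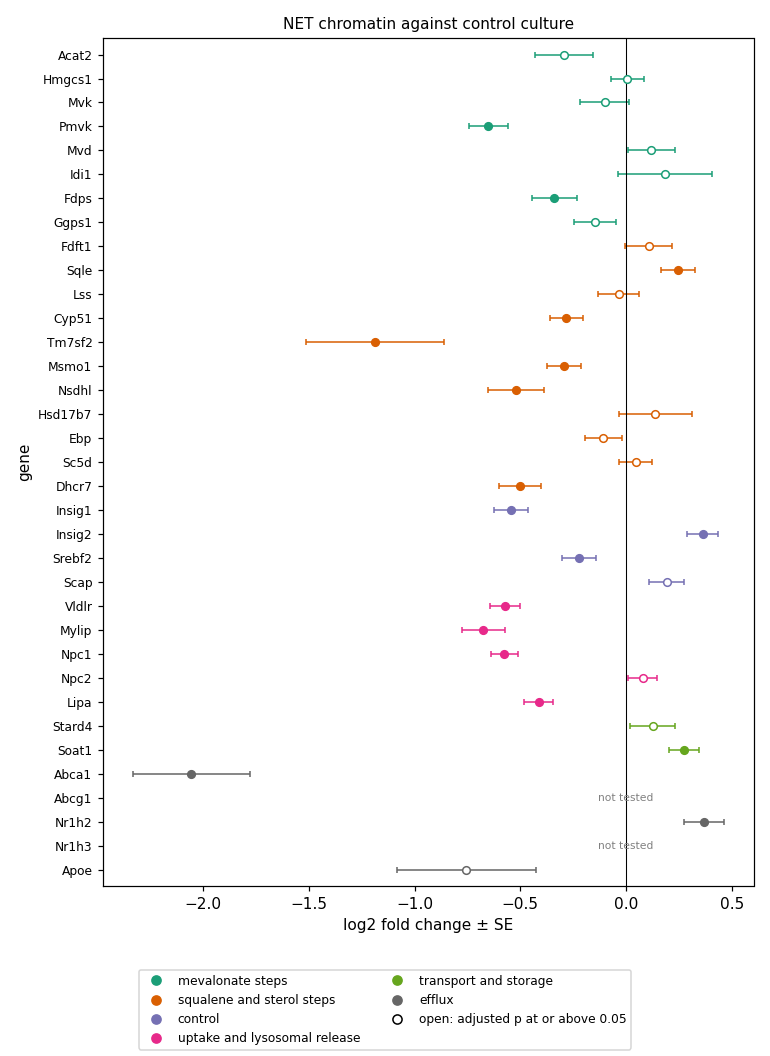
Points are log2 fold changes of NET cultures against control cultures with their standard errors (3 libraries each), coloured by role; filled points passed an adjusted p of 0.05. Abca1 lies farthest to the left at -2.06, 4 of the 5 uptake and lysosomal genes are filled and below 0, and the 4 filled points above 0 are Sqle, Insig2, Soat1 and Nr1h2.

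Among the 5 uptake and lysosomal genes, 4 fell and 1 did not pass, where 27.8% of all genes fell. Npc1, which exports cholesterol from the lysosome, read 194, 191 and 185 CPM in the control cultures and 130, 121 and 131 CPM in the NET cultures. Vldlr, a lipoprotein receptor, read 175, 195 and 184 CPM without NET chromatin and 114, 131 and 129 CPM with it. The groups did not overlap for either gene. The log2 fold change was -0.58 ± 0.06 (SE) for Npc1 (adjusted p = 1.21e-06) and -0.57 ± 0.07 for Vldlr (adjusted p = 4.06e-06). Lipa, the lysosomal lipase that frees cholesterol from its esters, fell by 0.41 on the log2 scale, and Mylip, a ubiquitin ligase that directs lipoprotein receptors to breakdown, fell by 0.68. Mylip did not pass in the fit of all 14 libraries (adjusted p = 0.113, the highest of its alternatives, which began at 5.02e-09). Npc2, the soluble partner of Npc1, had a log2 fold change of 0.08 ± 0.07 with overlapping groups, and the sign turned when scaled by library totals (-0.078).

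The mevalonate steps held 2 lower genes among 8, near the 27.8% of all genes that fell. Pmvk, phosphomevalonate kinase, read 39.1, 46.6 and 40.3 CPM in the control cultures and 25.2, 28.3 and 27.1 CPM in the NET cultures. Fdps, farnesyl diphosphate synthase, read 135, 170 and 139 CPM against 98.7, 135 and 119 CPM. Pmvk was lower in every NET library than in every control library, whereas for Fdps the second NET library reached the level of the first control library. The log2 fold changes were -0.65 ± 0.09 for Pmvk (adjusted p = 2.12e-05) and -0.34 ± 0.10 for Fdps (adjusted p = 0.0135); without the second control library the adjusted p for Fdps was 0.0593, and it ranged from 7.24e-06 to 0.0593 over the alternatives. The other 6 genes of these steps had log2 fold changes between -0.29 (Acat2, adjusted p = 0.0817) and 0.19 (Idi1, adjusted p = 0.504). Hmgcs1, the synthase that commits acetyl-CoA units to the pathway, had a log2 fold change of 0.01 ± 0.08.

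Of the 11 enzymes from squalene onward, 5 fell and 1 rose, where 27.8% of all genes fell and 26.3% rose. Dhcr7, the reductase of the last step, read 39.1, 49.5 and 47.0 CPM in the control cultures and 34.6, 32.7 and 29.9 CPM in the NET cultures. Nsdhl, a sterol dehydrogenase, read 17.7, 18.4 and 15.1 CPM against 10.3, 14.5 and 11.5 CPM. Neither gene overlapped between the groups, and the log2 fold changes were -0.50 ± 0.10 (adjusted p = 0.000404) and -0.52 ± 0.13 (adjusted p = 0.00325). Cyp51, the lanosterol demethylase, fell by 0.28 on the log2 scale, Msmo1, a methylsterol oxidase, fell by 0.29, and Tm7sf2, a sterol reductase counted at only 3 to 26 reads per library, fell by 1.19. In the fit of all 14 libraries Cyp51 (adjusted p = 0.0605) and Msmo1 (adjusted p = 0.0916) did not pass; over all alternatives the adjusted p began at 0.000104 and 0.000154, and these were the highest. The other 5, Fdft1, Lss, Hsd17b7, Ebp and Sc5d, lay between -0.11 and 0.14 with overlapping groups. Sqle, squalene epoxidase, rose from 76.2, 81.9 and 79.7 CPM to 84.7, 107 and 92.1 CPM, a log2 fold change of 0.25 ± 0.08 (adjusted p = 0.016). Without the second NET library the adjusted p for Sqle was 0.0702, and scaled by library totals it was 0.347, the range over its alternatives being 0.00308 to 0.347.

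The regulators moved in both directions, with 2 of 4 lower and 1 higher (27.8% and 26.3% over all genes). Insig1, an anchor of Scap that is itself a sterol-responsive gene, read 94.2, 115 and 99.4 CPM in the control cultures and 66.3, 72.5 and 73.1 CPM in the NET cultures. Insig2, the other anchor, read 86.3, 89.0 and 85.8 CPM without NET chromatin and 101, 121 and 114 CPM with it. Every NET library was thus below every control library for Insig1 and above every control library for Insig2. Their log2 fold changes were -0.54 ± 0.08 (adjusted p = 2.86e-05) and 0.36 ± 0.07 (adjusted p = 0.000519). Srebf2 fell by 0.22 on the log2 scale (adjusted p = 0.0307), but its groups overlapped and it did not pass when control library 2 or 3, or NET library 1 or 2, was left out (adjusted p between 0.0667 and 0.184; 0.000744 to 0.188 over its alternatives). Scap had a log2 fold change of 0.19 (adjusted p = 0.0579).

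In storage and efflux, Soat1, the enzyme that esterifies cholesterol for storage, read 224, 223 and 216 CPM in the control cultures and 244, 298 and 260 CPM in the NET cultures. Stard4, a cytosolic sterol carrier, read 48.0, 58.5 and 54.0 CPM against 50.2, 71.3 and 56.3 CPM. Soat1 was higher in every NET library, with a log2 fold change of 0.27 ± 0.07 (adjusted p = 0.0038), and Stard4 overlapped, with 0.13 ± 0.11 (adjusted p = 0.336). Abca1 read 4.18, 4.16 and 4.95 CPM in the control cultures and 1.47, 0.337 and 1.12 CPM in the NET cultures. Its counts were low, at 39 to 65 reads per control library and 2 to 22 per NET library. Nr1h2 read 75.1, 100 and 87.2 CPM without NET chromatin and 101, 115 and 122 CPM with it. The exporter was therefore lower and the receptor higher in every NET library, with log2 fold changes of -2.06 ± 0.28 (adjusted p = 1.03e-05) and 0.37 ± 0.09 (adjusted p = 0.00345). Scaled by library totals, neither Soat1 (adjusted p = 0.153) nor Nr1h2 (adjusted p = 0.0591) passed; over all their alternatives the adjusted p ranged from 0.000682 to 0.153 and from 1.3e-05 to 0.0591. Apoe had a log2 fold change of -0.76 (adjusted p = 0.0604) at 3 to 18 reads per library. Abcg1, with 1 to 3 reads per control library and 4 to 7 per NET library, and Nr1h3, with 0 to 4 reads per library, did not pass the filter.

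**Figure D3:**
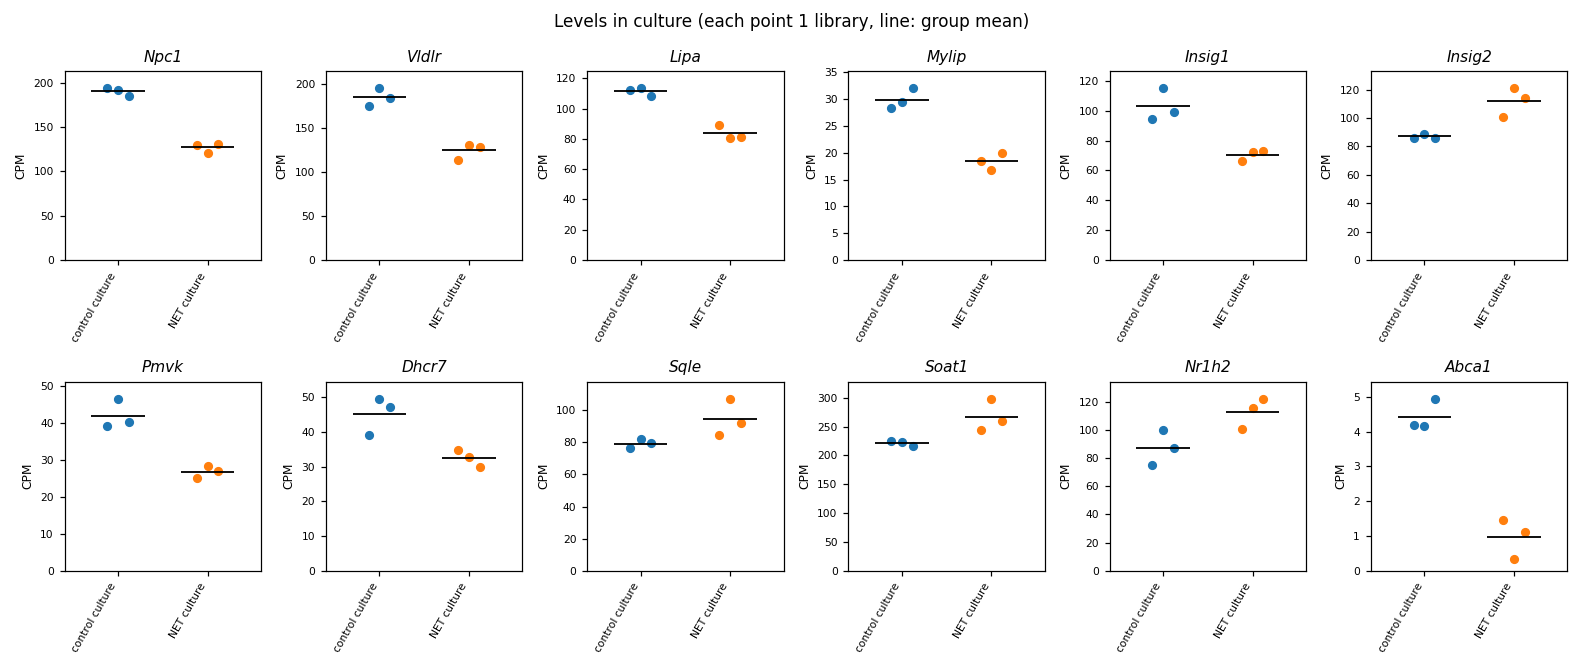
Each point is the CPM of 1 culture library, the line marks the group mean, and each axis starts at 0. The 3 NET libraries lie below the 3 control libraries for Npc1, Vldlr, Lipa, Mylip, Insig1, Pmvk, Dhcr7 and Abca1, and above them for Insig2, Sqle, Soat1 and Nr1h2.

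Of 28 other genes that handle sterols, 24 were tested, 11 fell, 5 rose and 8 did not pass. The smallest p values belonged to Lrp8, a lipoprotein receptor, at a log2 fold change of -0.55 ± 0.07 (adjusted p = 5.87e-06), and Stard5, a sterol carrier, at -0.67 ± 0.10 (adjusted p = 3.61e-05). Of 11 genes that use the isoprenoids made on the way to squalene, 6 rose, 1 fell and 4 did not pass. Beside both lists, 26.3% of all genes rose and 27.8% fell. Nus1, a subunit of the enzyme that makes dolichol precursors, had a log2 fold change of 0.66 ± 0.07 (adjusted p = 6.21e-07), and Rabggtb, a subunit of the transferase that prenylates Rab proteins, 0.34 ± 0.06 (adjusted p = 0.00017).

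In sorted tumour cells from WT hosts, 0 of the 35 members passed the threshold between laparotomy and no surgery (edgeR's quasi-likelihood test, 14615 genes), where 0.0547% of all genes did. The difference was positive for 22 members and negative for 13, with a median log2 fold change of 0.12 against -0.01 over all genes. At an unadjusted p under 0.05, 6 members were higher (17.1%, against 7.46% of genes) and 4 were lower (11.4%, against 11.4%). DESeq2, run on the same counts, called 3 members higher, where it called 1.93% of all genes higher, and 5 lower, where it called 6.49%. Libraries did not overlap for 15 members that were higher with laparotomy (42.9%, against 29.2% of genes) and for 8 that were lower (22.9%, against 28.1%).

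The 5 members with the smallest p in WT hosts were Vldlr, Npc2, Lss, Apoe and Ebp. Vldlr read 133 and 98.2 CPM without surgery and 236 and 215 CPM after laparotomy. Lss, lanosterol synthase, read 46.1 and 35.7 CPM against 63.1 and 65.8 CPM. Both were above the no-surgery libraries in both laparotomy libraries, with log2 fold changes of 0.97 ± 0.17 (adjusted p = 0.0858) and 0.66 ± 0.15 (adjusted p = 0.135). Npc2 read 294 and 299 CPM without surgery and 225 and 212 CPM after laparotomy, and Ebp, a sterol isomerase, 62.6 and 64.2 CPM against 44.4 and 46.1 CPM. Neither overlapped, and the log2 fold changes were -0.44 ± 0.10 (adjusted p = 0.135) and -0.49 ± 0.13 (adjusted p = 0.145). Without the first WT library without surgery, the log2 fold changes were 1.2 for Vldlr and 0.85 for Lss. That fit rests on 1 no-surgery library, the second, which held the highest leukocyte, neutrophil, macrophage and lung epithelial marker sums.

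Apoe read 86.3 and 167 CPM without surgery and 31.6 and 26.4 CPM after laparotomy, a log2 fold change of -2.13 ± 0.49 (adjusted p = 0.14). Without the second no-surgery library it was -1.57 ± 0.50 (adjusted p = 0.412), and over its alternatives the adjusted p ranged from 0.00476 to 0.71. Macrophages are known for high Apoe, and the macrophage list differed the same way: all 15 of its markers had a negative difference, and their sum was 420 and 1735 CPM without surgery and 125 and 113 CPM after laparotomy, with no marker at 0 in any tumour group. Markers of other cells differed the same way: all 10 pan-leukocyte, 9 tested neutrophil, 12 lung epithelial and 11 endothelial markers had a negative difference. Lung epithelial markers summed to 148 and 880 CPM without surgery and 12.2 and 24.3 CPM after laparotomy in WT hosts, and to 37.9 to 445 CPM in KO hosts. The part of those cells in the values of Apoe and the other members in WT hosts was not tested. Abcg1 read 6.49 and 35 CPM without surgery and 5.88 and 4.69 CPM after laparotomy, and its higher value was in the library with the highest leukocyte marker sum.

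In PAD4 KO hosts, 1 of the 35 members rose after laparotomy and 0 fell, where 0.342% of all genes rose and 0.178% fell. The member was Mvd, diphosphomevalonate decarboxylase. Of the 19 synthesis enzymes, 17 had a positive difference, and both laparotomy libraries lay above both no-surgery libraries for 14. The difference was positive for 32 of the 35 members, against 7209 of 14615 genes, and the median was 0.45, against -0.01 over all genes. At an unadjusted p under 0.05, 17 members were higher (48.6%, against 8.24% of genes) and 1, Soat1, was lower (2.86%, against 7.45%). Both laparotomy libraries lay above both no-surgery libraries for 22 members (62.9%, against 21.6% of genes) and below them for 3 (8.57%, against 20.5%). The count of members past the threshold varied with the tool: 11 were higher and 0 lower with DESeq2 (3.05% and 2.39% of all genes), 13 were higher in a fit over all 14 libraries (4.33% of all genes) and 0 when only the 4 KO libraries were fitted (0.264%).

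**Figure D4:**
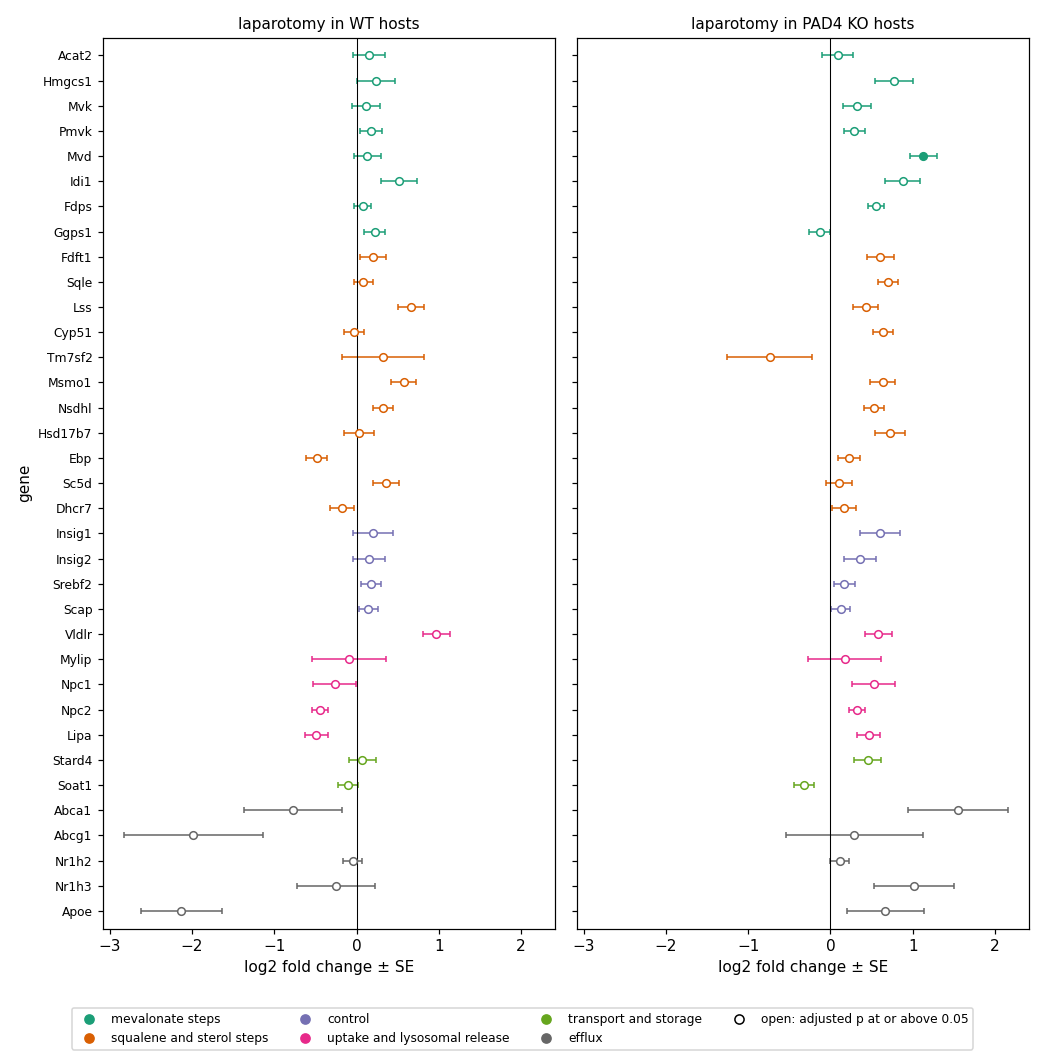
Points are log2 fold changes of laparotomy against no surgery with their standard errors, on the left in WT hosts and on the right in PAD4 KO hosts (2 libraries a group), coloured by role. Mvd in KO hosts, at 1.13, is the single filled point; 32 of 35 points lie above 0 in KO hosts and 22 in WT hosts.

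Mvd read 16.6 and 21.6 CPM in KO hosts without surgery and 39.9 and 44.0 CPM after laparotomy, and 26.3 to 31.2 CPM in the 4 libraries from WT hosts. The KO laparotomy libraries were thus the 2 highest and the KO libraries without surgery the 2 lowest of the 8. The log2 fold change was 1.13 ± 0.17 (adjusted p = 0.0377). It stayed between 0.96 and 1.33 over 18 alternatives, but the call was lost in 6 of them, with an adjusted p of 0.254 without the first KO library without surgery, 0.0765 and 0.126 without the first or second KO laparotomy library, 0.092 and 0.0996 without the first or second WT laparotomy library, and 0.0886 with only the 4 KO libraries. Its adjusted p ranged from 3.06e-05 to 0.254 over these alternatives.

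The next 4 members by p were also synthesis enzymes, and none passed. Sqle read 102 and 105 CPM without surgery and 171 and 166 CPM after laparotomy in KO hosts. Fdps read 158 and 144 CPM against 220 and 223 CPM. For both genes the KO laparotomy libraries were the highest of the 8 tumour libraries, and the log2 fold changes were 0.70 ± 0.12 (adjusted p = 0.0559) and 0.55 ± 0.10 (adjusted p = 0.0683). Cyp51 read 224 and 224 CPM without surgery and 333 and 367 CPM after laparotomy, and Nsdhl 32.0 and 33.8 CPM against 44.8 and 49.9 CPM. Cyp51 was again highest in the KO laparotomy libraries, at 0.64 ± 0.12 (adjusted p = 0.0723), while the Nsdhl levels, at 0.53 ± 0.12 (adjusted p = 0.11), overlapped those after laparotomy in WT hosts (45.1 and 42.8 CPM). Hmgcs1 read 128 and 125 CPM against 157 and 276 CPM, at 0.77 ± 0.23 (adjusted p = 0.178), with most of the difference in the second laparotomy library. Summed over the 19 synthesis enzymes, the level was 1224 and 1228 CPM in KO hosts without surgery and 1677 and 1895 CPM after laparotomy, beside 1309 and 1223 CPM in WT hosts without surgery and 1408 and 1380 CPM with it.

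Of the 16 members outside the synthesis enzymes, 15 had a positive difference in KO hosts and none passed, and 6 were higher at an unadjusted p under 0.05. All 5 uptake and lysosomal genes were positive. Vldlr read 82.6 and 81.2 CPM without surgery and 136 and 109 CPM after laparotomy, a log2 fold change of 0.58 ± 0.17 (adjusted p = 0.161). Lipa read 95.4 and 82.1 CPM against 128 and 116 CPM, at 0.46 ± 0.14 (adjusted p = 0.185), and Npc2 was at 0.32 ± 0.10 (adjusted p = 0.181). The libraries of these 3 genes did not overlap, while those of Npc1 and Mylip did. Insig1 read 35.5 and 55.8 CPM without surgery and 58.1 and 80.7 CPM after laparotomy, a log2 fold change of 0.60 ± 0.25 (adjusted p = 0.286). Srebf2 and Scap had smaller log2 fold changes, of 0.17 and 0.13, and the Scap libraries overlapped. Abca1 read 7.48 and 28.9 CPM without surgery and 49.1 and 57.7 CPM after laparotomy, at 1.55 ± 0.60 (adjusted p = 0.29). Without the second KO library without surgery its difference was 2.83, past the threshold (adjusted p = 0.0389), and over its alternatives the adjusted p ranged from 0.0389 to 0.578. The first KO library without surgery, the lowest for Abca1, held 137 CPM of macrophage markers. The other KO libraries held 347, 521 and 315 CPM. All 15 macrophage markers were higher on average after laparotomy in KO hosts, 5 of them at an unadjusted p under 0.05 (edgeR's quasi-likelihood test). Other host-cell lists were mixed. Higher were 6 of 10 pan-leukocyte, 4 of 9 tested neutrophil, 6 of 12 lung epithelial, 6 of 9 fibroblast and 1 of 11 endothelial markers. The part of host cells in the values of Abca1 and the lysosomal genes was not tested. Fibroblast markers summed to 2912 CPM in the second KO laparotomy library, beside 671 to 1246 CPM in the other 7 tumour libraries. Most of the 2912 CPM came from Dcn (1542 CPM), Lum (726 CPM) and Pdgfra (511 CPM). The control cultures themselves held 81.8 to 85.2 CPM of Pdgfra. The rest of the list did not all follow: Dpt, at 60.9 CPM, was at its highest of the tumour libraries, and Scara5, at 62.7 CPM, at its lowest.

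**Figure D5:**
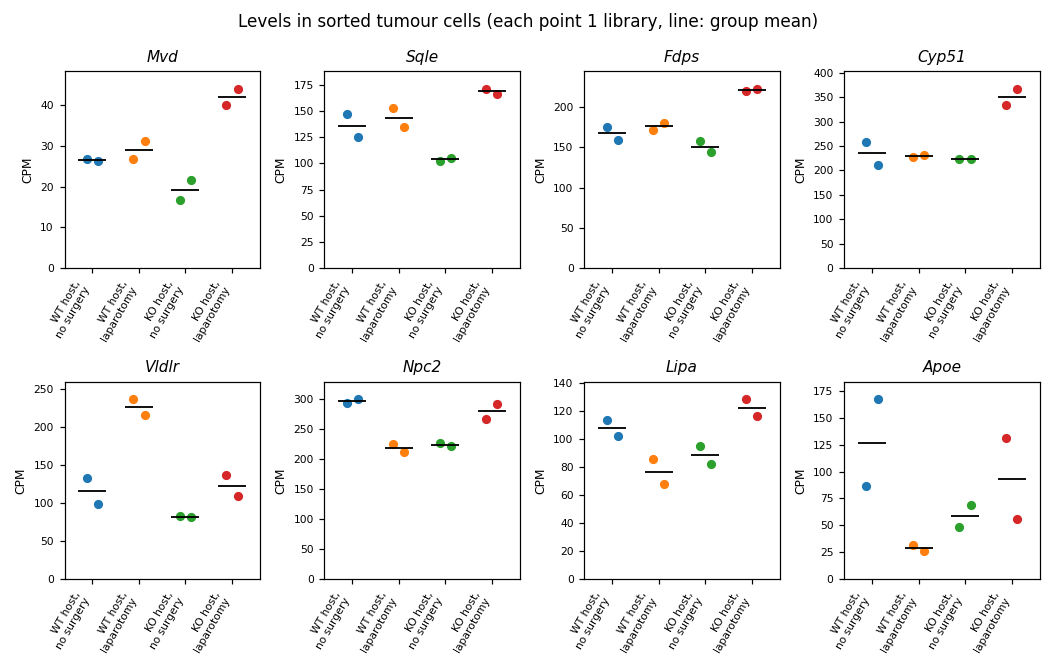
Each point is the CPM of 1 tumour library, the line marks the group mean, and each axis starts at 0. Mvd, Sqle, Fdps and Cyp51 are highest in the 2 KO laparotomy libraries, Vldlr in the 2 WT laparotomy libraries, and Npc2, Lipa and Apoe are lowest or near lowest in the WT laparotomy libraries.

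The difference between the 2 laparotomy effects was tested directly as an interaction. None of the 35 members passed in edgeR's quasi-likelihood test, where 0.677% of all genes did; DESeq2 called 7 members, all with a more positive effect in KO hosts, where it called 5.09% of all genes in that direction. At an unadjusted p under 0.05, 10 members had a more positive effect in KO hosts (28.6%, against 10.7% of genes) and 0 a more negative one, against 8.44%. The median difference was 0.36, against 0.03 over all genes. The smallest p belonged to Npc2, at 0.76 ± 0.14 (adjusted p = 0.0562). Its levels were 294 and 299 CPM in WT hosts without surgery, 225 and 212 CPM in WT hosts with laparotomy, 227 and 221 CPM in KO hosts without surgery and 268 and 293 CPM in KO hosts with laparotomy, so the sign of the difference was opposite in the hosts. Lipa, also of the lysosome, differed by 0.95 ± 0.20 (adjusted p = 0.0786), from 113 and 102 to 85.5 and 68.2 CPM in WT hosts and from 95.4 and 82.1 to 128 and 116 CPM in KO hosts. In the same contrast all 15 macrophage markers were positive, each at an unadjusted p under 0.05 (median 3.03). All 10 pan-leukocyte, 9 tested neutrophil, 12 lung epithelial, 11 endothelial and 9 fibroblast markers were positive too. Of these, 5, 6, 7, 2 and 5, in that order, had an unadjusted p under 0.05 in edgeR's quasi-likelihood test. The part of all these markers in the members' values was not tested. Mvd followed at 1.00 ± 0.24 (adjusted p = 0.0986), Cyp51 at 0.68 ± 0.17 (adjusted p = 0.106) and Ebp at 0.71 ± 0.19 (adjusted p = 0.113). Ebp read 45.5 and 54.8 CPM in KO hosts without surgery and 62.2 and 55.1 CPM after laparotomy.

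Between hosts without surgery, 0 members passed in edgeR's quasi-likelihood test (0.116% of all genes did), 2 members were higher in KO hosts and 7 lower at an unadjusted p under 0.05 (5.71% and 20%, against 7.15% and 9.19% of genes), and the median difference was -0.08. The smallest p values were those of Npc2 (-0.40, adjusted p = 0.146), Ggps1, geranylgeranyl diphosphate synthase (0.51, adjusted p = 0.155), Sqle (-0.39, adjusted p = 0.196), Vldlr (-0.49, adjusted p = 0.22) and Mvd (-0.47, adjusted p = 0.238). Ggps1 read 38.5 and 44.1 CPM in WT hosts and 61.1 and 56.8 CPM in KO hosts. DESeq2 called 1 member lower, Npc2, where it called 3.33% of all genes lower. All 15 macrophage markers (median log2 fold change -1.93, 12 with an unadjusted p under 0.05) and all 10 pan-leukocyte markers (median -2.22) were also lower on average in KO hosts, with sums in the ranges given above, and their part in the members' values was not tested.

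Between hosts with laparotomy, again 0 members passed (0.0205% of all genes did), 10 members were higher in KO hosts and 2 lower at an unadjusted p under 0.05 (28.6% and 5.71%, against 7.07% and 6.3% of genes), and the median difference was 0.23. The smallest p values were those of Vldlr (-0.88, adjusted p = 0.111), Cyp51 (0.61, adjusted p = 0.114), Lipa (0.67, adjusted p = 0.14), Npc2 (0.36, adjusted p = 0.202) and Hsd17b7, a keto-sterol reductase (0.62, adjusted p = 0.229). Vldlr read 236 and 215 CPM in WT hosts and 136 and 109 CPM in KO hosts; leaving out either WT library without surgery brought Vldlr (-0.88) and Cyp51 (0.61) past the threshold. Hsd17b7 read 48.7 and 58.6 CPM in WT hosts and 94.0 and 70.7 CPM in KO hosts. DESeq2 called 3 members higher and 1 lower, where it called 2.6% of all genes higher and 1.39% lower. All 15 macrophage (median log2 fold change 1.03), 12 lung epithelial (median 2.70) and 11 endothelial markers (median 1.72) were higher on average in KO hosts, and their part in these values was not tested. This comparison and the one without surgery share libraries with the laparotomy comparisons, so their values are not independent.

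Among other genes that handle sterols (27 of 28 tested) and those that use isoprenoids (11 of 11 tested), 0 passed in any of the 5 tumour comparisons. The median log2 fold change after laparotomy in KO hosts was 0.17 over the sterol-handling genes and -0.04 over the isoprenoid users.

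Set beside the cultures on 1 common scale, with no test since sorting, place of growth and host cells differ together, 11 members read higher in all 8 tumour libraries than in all 6 cultures (26.1% of all genes did), 3 read lower (23.3% of all genes did) and 21 overlapped. The higher members included Hsd17b7, with a median of 55.2 CPM in tumours and 6.98 CPM in cultures, Idi1, isopentenyl diphosphate isomerase, with 14.8 and 3.06 CPM, and Nsdhl, with 38.7 and 15.0 CPM. Acat2, Mvk, Cyp51 and Ebp were also higher, at 1.48 to 1.94 times the culture median. The other 4 were of the efflux group: Apoe, with 61.5 and 1.16 CPM, Abca1, with 28.8 and 2.88 CPM, Abcg1, with 6.24 and 0.306 CPM, and Nr1h3, with 4.42 and 0.0947 CPM. The 15 macrophage markers summed to 113 to 1735 CPM in tumours, and the part of host cells in these levels was not tested. Insig2, with 31.4 CPM in tumours and 97.4 CPM in cultures, Npc2, with 242 and 418 CPM, and Nr1h2, with 66.9 and 103 CPM, were the 3 lower members.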

How the data were processed

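Each of the 6 culture and 8 sorted tumour libraries was made from 1 µg of TRIzol-extracted total RNA, per the labels' protocols. The authors deposited whole-number read counts per gene symbol; per the submitters' processing notes, Trimmomatic and STAR were used with the mm10 genome. Their versions and options, the annotation and the kit: not given in the sources used here. The unstranded count column was used; of the stranded counts, 1.09% to 1.2% were in the smaller strand column. Summary lines, left out, held 6.14% to 9.25% multimapping and 12.1% to 24.0% unassigned reads. The members and gene lists were chosen with earlier results of these data known.

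The test was edgeR 4.0.16 (R 4.3.3; filterByExpr, TMM scaling, robust quasi-likelihood fit, Benjamini-Hochberg adjustment, threshold 0.05), in 1 fit of the 6 culture libraries (11753 genes) and 1 of the 8 tumour libraries (14615 genes), each with 4 residual degrees of freedom. Levels are TMM-scaled CPM. Scripts were tested on simulated data. In tumour comparisons with fewer than 3 members past the threshold, the 5 with the smallest p are named, most of them with values per library. In culture, the 2 of each role with the smallest p are given per library. Values given for other members were chosen after they were seen. Alternatives were DESeq2 1.42.0, other scalings, no filter, the larger strand column, a fit of all 14 libraries, only the compared groups, a pan-leukocyte covariate, a replicate block and leaving out each library. With 1 library left in a group, it is assumed to vary like the others. Gene lengths and positions are from GENCODE M21 on GRCm38. No library pair of a group agreed within sampling noise. Whether replicates are separate cultures or mice is not stated, so the p-values cover only the spread among these samples, which may be technical. No batch is named, but sequencer sample numbers in the deposited names repeat: among the tumours, number 4 stands on a WT library without surgery and a WT laparotomy library, and 5 on a WT laparotomy library and a KO library without surgery. More than 1 run is therefore possible, and its part in the comparisons was not tested.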

Additional observations from a re-analysis of the deposited data

How the results depend on the processing

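Members with an unadjusted p under 0.05 kept their direction in all 1284 values from the alternatives. These members were picked by p from the same libraries that the alternatives reuse, so the kept signs are no separate evidence. Of 2120 values of the other members, 113 (5.33%) had the opposite sign. Among those named in culture, none of which passed, library totals turned the log2 fold changes of Hmgcs1 (-0.15), Fdft1 (-0.048), Hsd17b7 (-0.016), Sc5d (-0.11), Npc2 (-0.078) and Stard4 (-0.031) negative, and no filter that of Hmgcs1 (-0.0075). With single libraries left out, Hmgcs1 ranged from -0.054 to 0.083, Lss from -0.11 to 0.055, Sc5d from -0.00996 to 0.12 and Stard4 from -0.0010 to 0.22. In culture, library totals gave 1 member higher (4 as reported) and the fit of all 14 libraries 9 lower (14 as reported); leaving out single libraries gave 4 to 5 higher and 13 to 15 lower. After laparotomy in WT hosts, 3 members were higher with DESeq2, 1 without a filter and 3 in the fit of all 14 libraries, and 5 and 4 were lower with DESeq2 and all 14 libraries; leaving out single libraries gave 0 to 2 higher. After laparotomy in KO hosts (1 higher as reported), 11 were higher with DESeq2, 6 without a filter, 13 with all 14 libraries, 4 with the leukocyte covariate and 0 with only the compared groups; leaving out single libraries gave 0 to 3. For the difference between the effects, 7 were higher with DESeq2, 2 without a filter and 7 with all 14 libraries, and 0 to 1 with single libraries left out. Between hosts without surgery, 1 was lower with DESeq2, and 1 was higher and 1 lower with all 14 libraries. Between hosts with laparotomy, 3 were higher and 1 lower with DESeq2, 2 and 1 without a filter, 4 and 1 with all 14 libraries, 2 and 1 with only the compared groups, and 0 to 1 in each direction with single libraries left out. The cause was not tested, except that leaving out libraries leaves fewer samples. A replicate block gave 5 higher and 14 lower in culture and changed no count of members in the tumours. The labels do not say whether same-numbered libraries are paired. Correlations of their deviations were 0.102, 0.0999 and -0.0412 in culture and -0.134 to 0.396 between tumour groups, the highest between WT and KO hosts without surgery. These few values cannot settle pairing, since between tumour groups of 2 libraries each is a single value that only changes sign when the pairs are crossed. The crossed pairing in KO hosts, added after seeing the data because of the -0.134, gave 2 higher. Over all genes the counts moved further. In culture 6363 became 3716 with all 14 libraries. In WT hosts 8 became 1220 with DESeq2, 1450 with all 14 libraries, 166 without a filter, 14 with only the compared groups, 13 with RLE size factors and 0 with the covariate or block, and 0 to 512 with single libraries left out. In KO hosts 76 became 789, 1132, 278 and, with the covariate, 150, and 0 to 202. For the difference 99 became 1131, 1596, 399, 39 with the covariate, 56 with the block, and 0 to 344. Without surgery 17 became 782, 1046, 196, 0 with only the compared groups, 2 with the covariate, 0 with the block, and 0 to 218. With laparotomy 3 became 534, 712, 152, 220, 30 and 1, and 0 to 121. With 2 libraries a group, a member that did not pass in the tumours is not shown to be unchanged.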
